A study of Mus musculus with 2 samples.

Results

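The clustered protocadherins are a family of neuronal adhesion genes that lie side by side in the alpha, beta and gamma clusters on mouse chromosome 18. Their RNA was measured here in embryonic hindbrain. Members were taken by symbol: every protein-coding gene of the GENCODE M21 annotation named Pcdha, Pcdhac, Pcdhb, Pcdhga, Pcdhgb or Pcdhgc with a number. This gave 57 genes of 55536 in the annotation, of which 22028 are protein coding. The alpha cluster held 14 members, the beta cluster 22 and the gamma cluster 21. The symbol Pcdha11 is carried by 2 gene entries, called the upstream and the downstream entry here.

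The series holds 1 group, hindbrain of healthy B6NCrl mouse embryos of mixed sex at embryonic day 12.5, as 2 biological replicates. Pool 1 was made from 120 embryos and pool 2 from 88 embryos. Libraries were polyA-plus RNA-seq from 10 ng of RNA, and genes received 31469543 expected counts in pool 1 and 29261435 in pool 2, after rounding to whole counts. No treatment, mutant or other stage is present, so the comparisons are between clusters, between members and between the pools, and no p-value was computed. Paired values are those of pool 1 and pool 2. Levels are TPM, transcript abundance corrected for length and scaled to a fixed library total, given per pool or as mean ± SD over the pools (n = 2). Each value averages over all cell types of many embryos, so fewer cells of a type and less RNA per cell cannot be told apart.

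Clustered protocadherins are cell-surface cadherins that bind copies of themselves on a neighbouring cell. An individual neuron switches on only a small, largely random choice of them, and the resulting surface code lets a neuron recognise and avoid its own branches. Each member has its own promoter and a large variable exon that encodes the extracellular domain, the membrane span and a short cytoplasmic stretch. In the alpha and gamma clusters this exon is spliced to constant exons that give all members of the cluster a common cytoplasmic tail. Beta members have no constant exons. The C-type members at the ends of the alpha and gamma clusters are known to escape the random choice in many neurons.

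All 57 members lie on the plus strand of mm10, at chr18:36930184-37841873 from the start of Pcdha1 to the end of Pcdhgc3. In the M21 annotation, 3 exons were shared by all 14 alpha genes, with starts at 37156155, 37159265 and 37184946. Likewise, 3 exons were shared by all 21 gamma genes, with starts at 37825021, 37833265 and 37839903. No exon was shared in this way by beta genes. The constant exons limit how much of a gene can be told from its relatives by sequence. Windows of 100 bases were taken from each gene's longest protein-coding transcript. A median of 43.8% of them occurred in no other gene for alpha members, 99.8% for beta members and 53.9% for gamma members. Matches to genes on the other strand counted too, so this share reflects more than the constant exons.

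RNA of the family was dominated by the gamma cluster. The 57 members summed to 238.28 TPM in pool 1 and to 258.83 TPM in pool 2. Gamma genes took 77.3% ± 0.753 of this sum, beta genes 14.9% ± 0.518 and alpha genes 7.82% ± 0.234. In TPM, the gamma cluster summed to 185.46 in pool 1 and 198.7 in pool 2, the beta cluster to 34.59 and 39.47, and the alpha cluster to 18.23 and 20.66. The order gamma, beta, alpha was the same in both pools, and no cluster's sum in either pool overlapped that of another.

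By gene, 1 TPM was reached in both pools by all 21 gamma members, 14 of 22 beta members and 9 of 14 alpha members. Over the family this was 44 of 57 members, or 77.2%, beside 61.8% of all protein-coding genes. Another 11 members were under 1 TPM in both pools, 4 of them alpha and 7 beta. The median level was 6.18 TPM for gamma members, 1.64 TPM for beta members and 1.47 TPM for alpha members. It was 2.03 TPM over the family, against 5.47 TPM over all protein-coding genes and 21.8 TPM over those that reached 1 TPM in both pools. Most alpha and beta members were thus low-level transcripts of the tissue, and the gamma members sat near the middle of all protein-coding genes.

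On the scale of mean log2(TPM + 0.1) per gene, which understates the difference of low genes, gamma exceeded beta by 2.29 in pool 1 and 2.25 in pool 2 (mean 2.27 ± 0.03, a 4.82-fold difference). Alpha was below gamma by nearly the same amount, with a difference of -2.33 in each pool. The gamma difference did not rest on its C-type members, since the 18 gamma A and gamma B genes alone exceeded beta by 2.09 ± 0.01. Alpha and beta differed little per gene, by -0.06 ± 0.03, and the sign of this difference turned with a pseudocount of 0.01 TPM (0.07) or with counts not corrected for length (0.34).

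**Figure D1:**
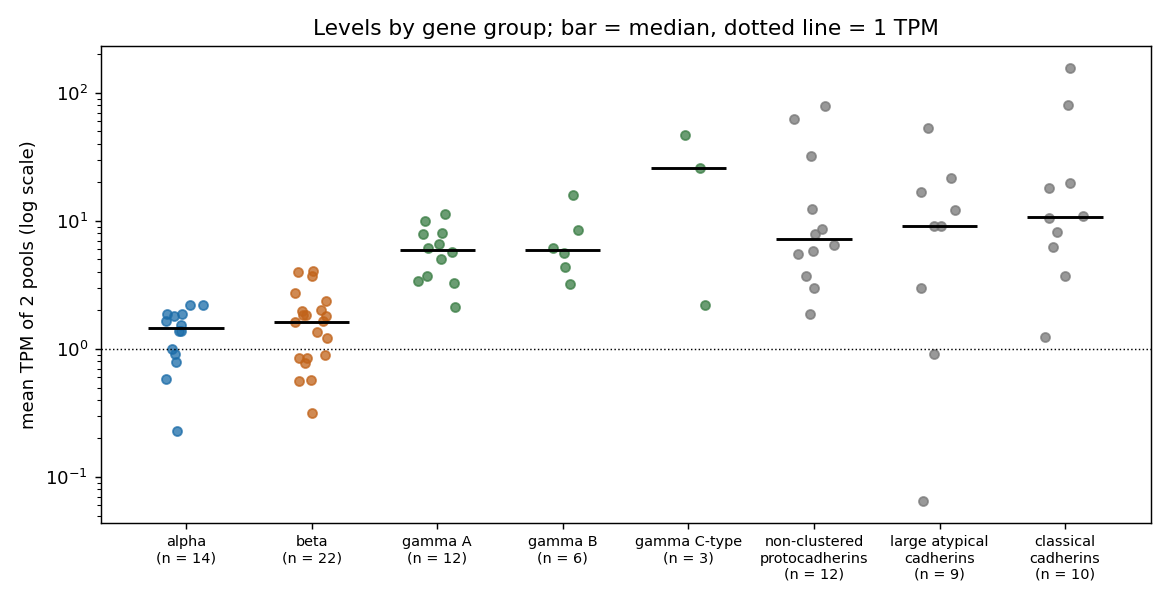
Mean TPM of the pools on a log axis for each member of the alpha and beta clusters and of the gamma A, gamma B and gamma C-type groups, with 3 other cadherin groups in grey. Points are genes, bars are group medians and the dotted line is 1 TPM; Pcdhb1, listed at 0, is not drawn. Alpha and beta members centre on 1.47 and 1.64 TPM, below the gamma A and gamma B medians of 5.95 and 5.89 TPM, and 2 gamma C-type members stand above all other members.

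Within the gamma cluster, Pcdhgc3 and Pcdhgc4 stood above every other member in TPM. Pcdhgc3, a C-type gene known to promote dendrite branching of cortical neurons in mice, had 44.26 TPM in pool 1 and 49.89 TPM in pool 2. Pcdhgc4, a C-type gene that mice need for the survival of inhibitory interneurons, had 28.37 and 23.3 TPM. The largest part of this was a short transcript of 2272 bases, at 17.48 and 10.85 TPM. The form of 5024 bases had 2.53 and 2.97 TPM. By expected counts, not corrected for length, Pcdhgc4 had 1508 and 1227, beside 1433 and 1346 for Pcdhgb6. Without the length correction Pcdhgc4 thus led Pcdhgb6 in pool 1 and was below it in pool 2. Pcdhgc3 and Pcdhgc4 together took 38.0% ± 1.65 of gamma RNA and 29.4% ± 1.56 of the RNA of the family. Pcdhgc5, the remaining gamma C-type gene and one known for its later, postnatal onset in the forebrain, had 2.51 TPM in pool 1 and 1.86 TPM in pool 2. It was 1 of the 3 lowest gamma members, so C-type genes lay at both ends of the gamma range.

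Pcdhgb6 followed, with 15.65 TPM in pool 1 and 15.94 TPM in pool 2, and led the gamma B genes. Pcdhga11 led the gamma A genes with 10.41 and 12.18 TPM. Pcdhga7 came next with 9.14 and 10.81 TPM. These genes encode isoforms that differ in the recognition face of the extracellular domain, and no separate role of each is given here. By TPM, the same 5 genes filled ranks 1 to 5 in the same order in both pools, and 9 of the 10 highest members were shared between the pools. All of the 10 highest members were gamma genes, as were 17 of the highest 20; the other 3 were beta genes.

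The files give lower and upper bounds for each TPM, with a probability level not given in the sources used here. By these bounds, Pcdhgc3 (40.7 to 45.1 TPM in pool 1, 46.3 to 50.4 TPM in pool 2) was apart from Pcdhgc4 (23.6 to 32.3 TPM in pool 1, 17.9 to 26.2 TPM in pool 2). Pcdhgc4 was in turn apart from Pcdhgb6 (14.1 to 16.1 TPM and 14.3 to 16.4 TPM). Pcdhgb6 was apart from Pcdhga11 (9.16 to 10.9 TPM and 10.7 to 12.6 TPM). Pcdhga11 overlapped Pcdhga7 (8.09 to 9.63 TPM and 9.57 to 11.3 TPM) in both pools. Further down the gamma order, by mean TPM, no neighbours were apart in both pools. Pcdhga7 was apart from Pcdhgb7 in pool 2 alone, and Pcdhga12 from Pcdhga3 in pool 1 alone.

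At the low end of the cluster were Pcdhga1 with 1.9 and 2.34 TPM, Pcdhgc5, and Pcdhgb1 with 2.94 and 3.45 TPM. Without Pcdhgc3 and Pcdhgc4 the remaining 19 gamma genes had a median of 5.72 TPM and spread evenly. Evenness is given as the effective number of members, the number of equally expressed genes that would give the same diversity. It was 14.2 ± 0.276 for the 21 gamma genes and 16.6 ± 0.0958 for those 19. Gamma A and gamma B genes alternate along the chromosome and had like levels: their medians were 5.95 and 5.89 TPM, and gamma A minus gamma B was -0.30 in pool 1 and -0.13 in pool 2 on the log2 scale (mean -0.21 ± 0.12).

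**Figure D2:**
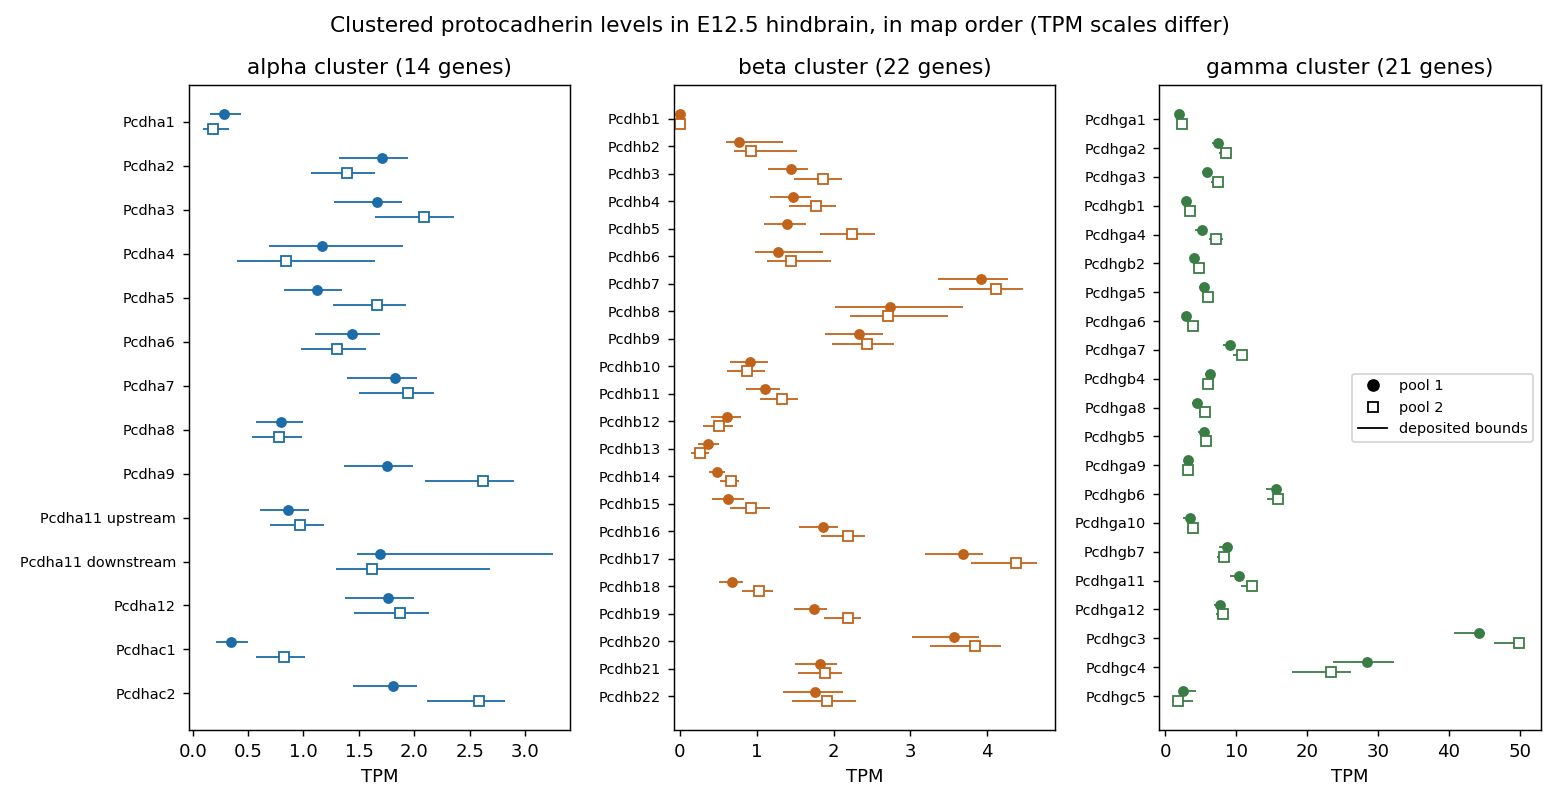
TPM of each member in map order, by cluster, with filled circles for pool 1, open squares for pool 2 and lines for the deposited bounds; the TPM axis differs between panels. Pcdhgc3 and Pcdhgc4 stand out in the gamma panel at 44.26 and 49.89 TPM and at 28.37 and 23.3 TPM, while no alpha member exceeds 2.62 TPM and no beta member 4.37 TPM in either pool.

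Alpha members were low and even. The highest was the C-type gene Pcdhac2, which mouse serotonergic neurons need for the even spread of their axons, with 1.81 TPM in pool 1 and 2.58 TPM in pool 2. Pcdha9 was level with it at 1.75 and 2.62 TPM. Pcdha7 had 1.83 and 1.94 TPM, Pcdha3 had 1.66 and 2.09 TPM, and Pcdha12 had 1.76 and 1.87 TPM. The effective number of alpha members was 12.5 ± 0.205 of 14, and the bounds of these 5 genes overlapped in pool 1.

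The lowest alpha member was Pcdha1, with 0.28 and 0.18 TPM. The C-type gene Pcdhac1 followed with 0.35 and 0.82 TPM. Pcdha8 had 0.8 and 0.78 TPM, and the upstream Pcdha11 entry had 0.86 and 0.97 TPM. These 4 genes were under 1 TPM in both pools, and Pcdha4, with 1.17 and 0.84 TPM, was under it in pool 2 alone. The whole alpha cluster rested on 1784 expected counts in pool 1 and 1920 in pool 2, against 2652 and 2872 for the beta cluster and 15521 and 15856 for the gamma cluster. Across the members, pool 1 and pool 2 TPM correlated with Pearson's r of 0.984 and Spearman's rho of 0.972 over all 57 genes, and with 0.875 and 0.842 over the 14 alpha genes. These describe genes that share their libraries and are not independent replicates.

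Beta members, most of them annotated as 1 exon with no shared tail, spanned a wider range. Pcdhb17 had 3.68 TPM in pool 1 and 4.37 TPM in pool 2. Pcdhb7 had 3.92 and 4.11 TPM, and Pcdhb20 had 3.57 and 3.84 TPM. These 3 were the only genes outside the gamma cluster among the 20 highest members of the family. Pcdhb8, with 2.74 and 2.71 TPM, and Pcdhb9, with 2.33 and 2.44 TPM, followed.

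Pcdhb1, at the upstream end of the beta cluster, had no count in either pool. A count of 0 allows up to 3 counts, which corresponds to 0.0603 TPM in pool 1 and to 0.0655 TPM in pool 2. The next lowest gene of the family was above this limit in both pools. Pcdhb13 had 0.37 and 0.26 TPM, Pcdhb12 had 0.61 and 0.51 TPM, Pcdhb14 had 0.49 and 0.66 TPM, and Pcdhb15 had 0.63 and 0.92 TPM. Pcdhb12 to Pcdhb15 are neighbours, and all 4 lay under 1 TPM in both pools. Pcdhb2 and Pcdhb10 were also under 1 TPM in both pools, and Pcdhb18, at 0.68 and 1.03 TPM, in pool 1 alone. The effective number of beta members was 17.5 ± 0.155 of 22.

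The 5 C-type genes did not form a group by level. Their mean exceeded that of the other 52 members by 1.22 ± 0.04 on the log2(TPM + 0.1) scale, but without Pcdhgc3 and Pcdhgc4 the difference of the other 3 from the rest was -0.60, the opposite direction. Their share of the RNA of the family was 31.4% ± 1.51, of which the alpha C-type genes took 1.11% ± 0.288. Position along a cluster had a weak relation to level. Pearson's r between map order and log2 level was 0.29 in alpha, 0.30 in beta and 0.43 in gamma, over 14, 22 and 21 genes that share their libraries. In the gamma A and B genes the upstream 9 had a median of 5.72 TPM and the downstream 9 a median of 6.18 TPM.

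Transcripts that reach the constant exons carry the common cytoplasmic tail, so the deposited transcript values were summed by whether a transcript holds all 3 of them. In the alpha cluster such transcripts took 84.6% of TPM in pool 1 and 91.5% in pool 2 (88.1% ± 4.91). In the gamma cluster they took 86.7% and 88.2% (87.5% ± 1.06). In 12 of the 14 alpha genes and 10 of the 21 gamma genes, at least 99% of the gene's TPM was in such transcripts in both pools.

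The alpha exceptions were Pcdha4 and the downstream Pcdha11 entry. In Pcdha4, constant-exon transcripts took 0% in pool 1 and 63.1% in pool 2, with the rest in an unspliced transcript of the variable exon annotated as retained intron. In the downstream Pcdha11 entry they took 2.96% and 11.1%. Both genes have few windows of their own, 1.80% and 2.85%, because other annotated transcripts cover their variable exons, and whether the split between transcripts reflects this was not tested.

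In the gamma cluster, shortened transcripts were a steadier part of several genes. Pcdhgc4 had constant-exon transcripts, with most of their TPM in the form of 2272 bases, at 70.6% in pool 1 and 59.3% in pool 2. The rest was a retained-intron transcript of 1 exon at 8.35 and 9.48 TPM, itself higher than the whole of most other members. Pcdhgb4 had 51.6% and 50.3%, Pcdhga9 had 49.5% and 56.6%, Pcdhga12 had 55.9% and 62.3%, and Pcdhgc5 had 51.4% and 43.3%. In these 4 genes the share stayed within 10 percentage points between the pools. The other transcript of Pcdhgc5 was a retained-intron form of 5777 bases with 2 constant exons. By expected counts it held 68.3% of that gene in pool 1 and 69.0% in pool 2. Pcdhga7 differed more between the pools, with 58.9% and 79.6% in constant-exon transcripts and an unspliced coding transcript at 3.76 and 2.21 TPM. Pcdhgc3 was almost wholly in constant-exon form, at 98.5% and 98.8%.

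**Figure D3:**
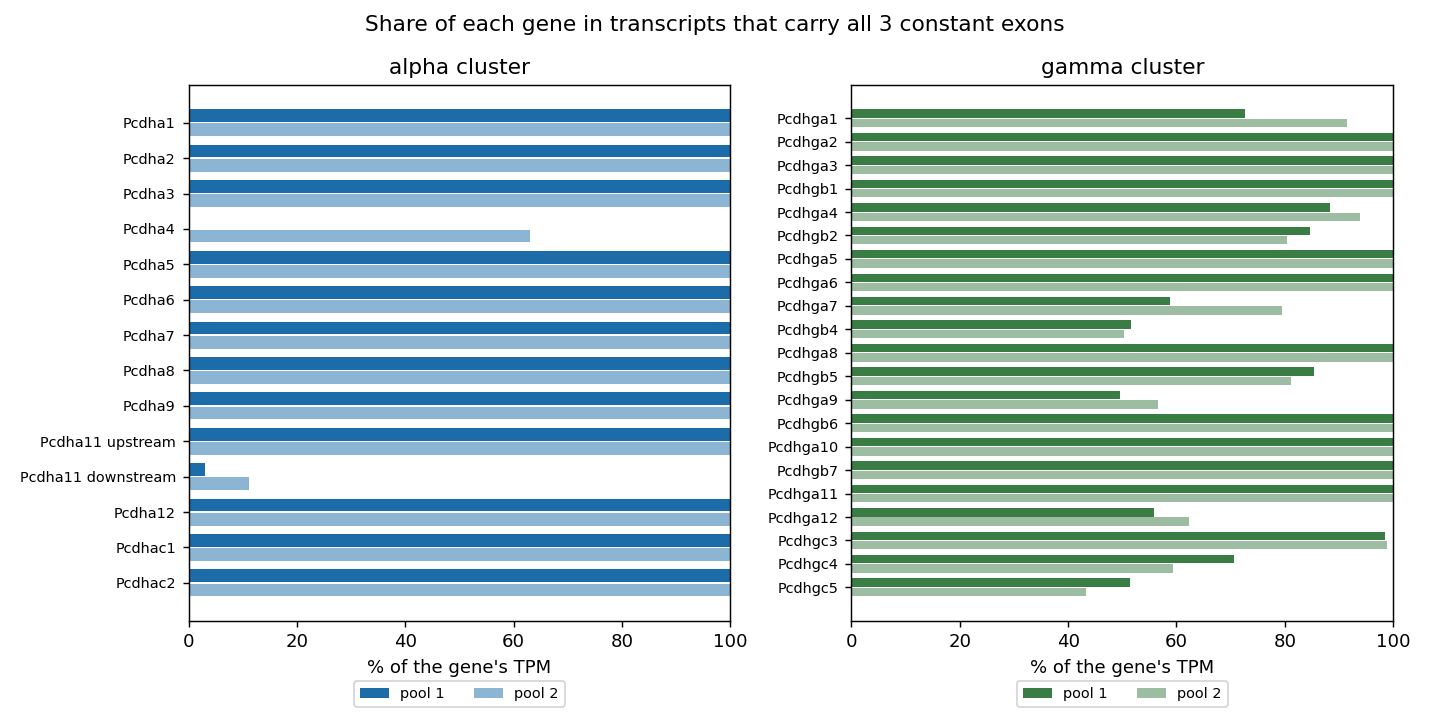
Percent of each alpha and gamma gene's TPM held by transcripts with all 3 constant exons, with dark bars for pool 1 and light bars for pool 2. Most alpha genes are at 100% apart from Pcdha4, at 0% and 63.1%, and the downstream Pcdha11 entry, at 2.96% and 11.1%; gamma genes such as Pcdhgb4, at 51.6% and 50.3%, are lower.

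A further split concerned the tail itself. Some alpha genes have annotated constant-exon transcripts of 4 exons and of 5 exons. In Pcdha6 the 5-exon form took 26.4% of the 2 forms in pool 1 and 80.8% in pool 2. Its deposited bounds, 0.00147 to 0.958 TPM in pool 1 and 0.000299 to 1.20 TPM in pool 2, overlapped almost wholly, so the split between the forms was not determined in either pool. In Pcdha2 all of the TPM of these forms was assigned to the 5-exon form in both pools. Yet its bounds, 0.283 to 1.71 TPM in pool 1 and 0.215 to 1.45 TPM in pool 2, overlapped those of the 4-exon form widely. The latter were 0.00887 to 1.24 TPM and 7.03e-07 to 1.06 TPM, so this split was not determined either.

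Reads from sequence shared between genes have to be divided among them. The deposited posterior SD of a gene's count, which measures the uncertainty of read assignment, had a median of 7.78% of the count for alpha members, 0.198% for beta members and 3.91% for gamma members. It was 1% or less in 18 of the 21 beta members with a count, and in none of the alpha or gamma members. The highest value was 25.9%, for Pcdha4. Across the 56 members with a count, the posterior SD fell as the share of private windows rose, with Pearson's r of -0.72 and Spearman's rho of -0.83, a description over genes of the same libraries. Depth differed too, and single genes departed from this. Pcdha1, with 43.0% private windows, had a posterior SD of 20.0% at a mean count of 21.55. Pcdhgc3, with 25.1% private windows, had 1.54% at a mean count of 4089. The parts of depth and of cluster in the relation were not tested.

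**Figure D4:**
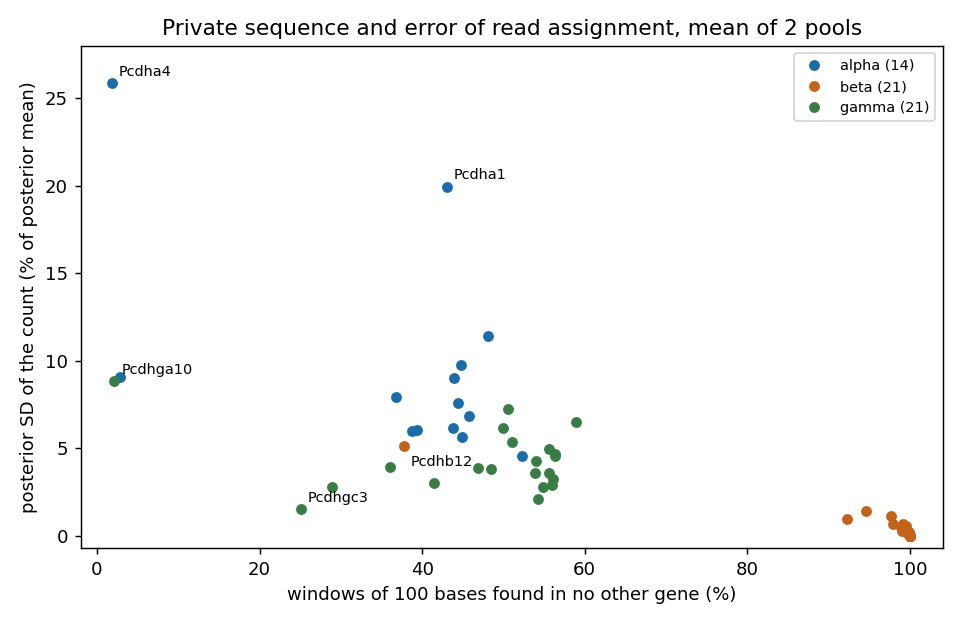
Posterior SD of the count in percent of the posterior mean count (mean of the pools) against the percent of a gene's windows of 100 bases found in no other gene, for the 56 members with a count. Beta members lie at the right near 0% error apart from Pcdhb12, and Pcdha4, with 1.80% private windows, has the largest error at 25.9%.

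Genes on the other strand also overlap some members, and whether the counting used strand was not given in the sources used here. Exons of 13 members overlap an antisense gene: 4 alpha, 1 beta and 8 gamma members. BC037039 overlaps 1559 bases of Pcdhgc3 and was listed at 6.73 and 7.01 TPM, well under Pcdhgc3. Gm26672, at 6.89 and 6.14 TPM, overlaps 2613 bases of Pcdhga10, which itself was at 3.44 and 3.97 TPM, and shorter stretches of Pcdhgb7, Pcdhga11 and Pcdhga12. Reads of such a pair cannot be told apart without strand, so the levels of Pcdhga10, Pcdhgb7, Pcdhga11 and Pcdhgc3 are less certain than their depth implies. A read-through gene, Gm42416, which runs from the alpha cluster into the gamma cluster, was listed at 0.6 and 0.77 TPM. Members that overlap one another on the same strand outside the constant exons were Pcdha1 with Pcdha4, Pcdhb21 with Pcdhb22, Pcdhgb1 with Pcdhga4 and Pcdhgb4 with Pcdhga8.

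Most members were slightly higher in pool 2. Of the 50 members with at least 50 mean counts, 42 were higher in pool 2 after TMM scaling, or 84.0%, beside 50.6% of 14989 genes with that depth. The median log2 ratio of pool 1 over pool 2 was -0.19 for these members and -0.00 for all such genes. All 16 beta members and all 12 gamma A members with that depth were higher in pool 2, against 4 of 6 gamma B members and 9 of 13 alpha members. Below that depth the beta members were mixed: Pcdhb10, Pcdhb12 and Pcdhb13 were higher in pool 1, and Pcdhb2 and Pcdhb15 in pool 2. With no depth limit, 44 of the 56 members with a count were higher in pool 2. The direction depends on the scaling: scaling by spike-in totals turned the median to 0.18 and left 11 of 50 members higher in pool 2, as it raised the median of all genes to 0.37. Relative to the median of all genes, the members' median was -0.19 under either scaling. This holds by construction, since a change of scaling shifts the log2 ratios of all genes alike, and it says nothing about which scaling is right.

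The single differences were small. Only Pcdhac1 passed 2-fold, at 37.7 counts in pool 1 (95% Poisson interval 26.6 to 51.8) and 80.1 counts in pool 2 (63.5 to 99.7), a log2 ratio of -1.18. This is 1 of 50 members, beside 0.994% of all genes in either direction, 0.58% higher in pool 2 and 0.414% higher in pool 1, and no member passed 2-fold when scaled by spike-in totals. A count of 1 gene is not a result about the family. Next came Pcdhb5, with 96 counts in pool 1 and 142 in pool 2 (log2 ratio -0.67), Pcdhb18 with 67 and 94 (-0.59), and Pcdha9 with 183 and 253 (-0.57). The largest ratio in the other direction was 0.31, for Pcdha2, with 155 and 116 counts. The deposited TPM bounds of the pools were apart for 8 of the 50 members with at least 50 mean counts, 3 alpha, 1 beta and 4 gamma. All 8, Pcdhgc3 among them, were higher in pool 2, beside 7.12% of the 14989 genes apart and higher in pool 2 and 5.63% apart and higher in pool 1. Pcdhgc4 went the other way, at 1508 and 1227 counts (0.19).

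Markers of other cell types also moved between the pools. Neuron markers were all present (10 of 10 at 1 TPM or more in both pools, with Tubb3 at 812.79 and 800.56 TPM), and 7 of 10 were higher in pool 2 (median log2 ratio -0.11). Of the radial glia and progenitor markers, 2 of 8 were higher in pool 2 (median 0.08). The serotonergic markers summed to 95.1 TPM in pool 1 and 70.6 TPM in pool 2, and 0 of 5 were higher in pool 2 (median 0.39). Most of these sums came from Gata3 (49.09 and 37.14 TPM) and Gata2 (33.76 and 22.58 TPM). The other markers, Fev, Tph2 and Slc6a4, were low and had log2 ratios of 0.19, 0.46 and 0.02. Pcdhac2 had a log2 ratio of -0.50, and a relation to these markers was not tested.

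Mesenchyme and meninges markers summed to 1269 and 1655 TPM, with 7 of 7 higher in pool 2 (median -0.29). Skeletal muscle markers summed to 34.0 and 169 TPM, with 6 of 6 higher in pool 2 (median -2.34). Surface epithelium markers summed to 104.35 and 69.13 TPM, with 1 of 5 higher in pool 2 (median 0.62). Erythroid markers summed to 17833 and 14256 TPM, with 1 of 6 higher in pool 2 (median 0.28). Endothelium and microglia markers differed less, with medians of -0.10 and -0.05. The part of these tissues in the members' ratios was not tested.

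**Figure D5:**
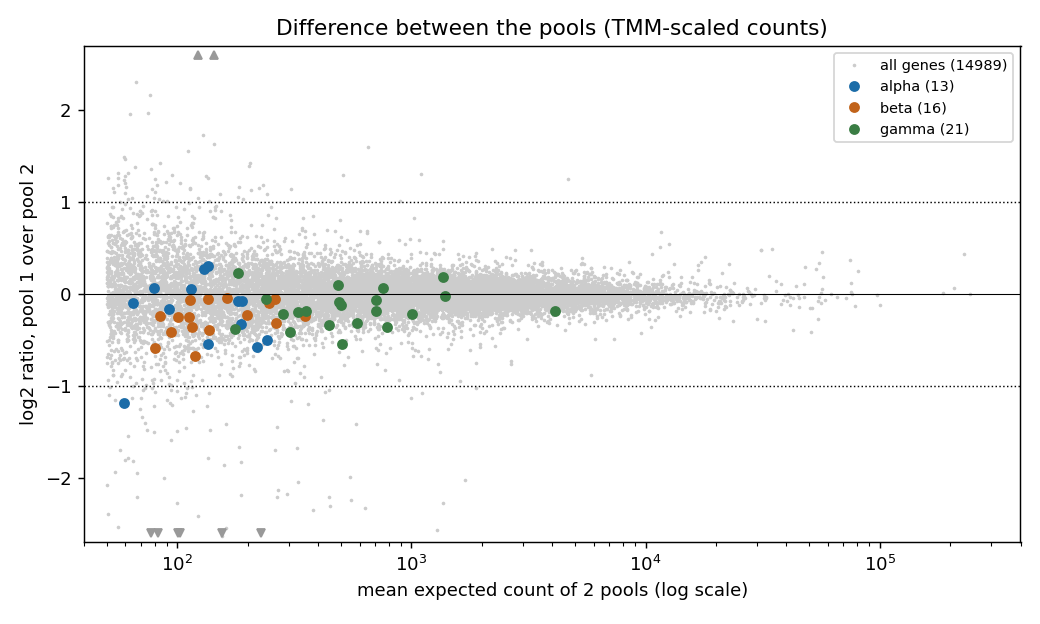
Log2 ratio of pool 1 over pool 2 (TMM-scaled counts) against the mean expected count on a log axis, for all 14989 genes with at least 50 mean counts in grey and for 50 members in colour; dotted lines mark 2-fold and grey triangles at the edge stand for genes beyond the ratio axis. The members lie mostly just under 0, with a median of -0.19, and Pcdhac1 alone is past 2-fold at -1.18.

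Genes for chromatin, DNA methylation and looping factors, several of them known to act on the promoters of the family, had a higher median level than its members. Of 24 such regulators, 23 reached 1 TPM in both pools, with a median of 45.7 TPM, beside 2.03 TPM over the family. The ranges overlapped: Pcdhgc3, at 44.26 and 49.89 TPM, was level with this median. Dnmt3b, at 7.35 and 7.42 TPM, was below several gamma members. The nuclear matrix protein gene Hnrnpu had 643.19 and 711.06 TPM. The DNA methyltransferase gene Dnmt3a had 128.28 and 138.34 TPM. Ctcf, whose protein binds the variable promoters and their enhancers, had 107.29 and 101.07 TPM, and the histone demethylase gene Kdm1a had 91.08 and 93.46 TPM. The regulator under 1 TPM was Ctcfl, the germline relative of Ctcf, at 0.11 TPM in each pool.

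Of 24 genes for cytoplasmic partners and downstream signalling of the family, 23 reached 1 TPM in both pools, with a median of 51.3 TPM. The small GTPase gene Rac1 had 318.18 and 344.61 TPM and the protein kinase C substrate gene Marcks 261.92 and 282.24 TPM. The WAVE complex genes Brk1 and Nckap1 had 155.36 and 158.51 TPM and 84.35 and 83.49 TPM. Of the focal adhesion kinases, which the constant tails are known to bind, Ptk2b was the member under 1 TPM, at 0.76 and 0.59 TPM.

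Other cadherins had higher medians than the family as a whole. The median over the family, 2.03 TPM, compares with 7.18 TPM over 12 non-clustered protocadherins, 9.18 TPM over 9 large atypical cadherins and 10.8 TPM over 10 classical cadherins. By cluster, the gamma median of 6.18 TPM was near that of the non-clustered protocadherins, and the alpha and beta medians were 1.47 and 1.64 TPM. Yet the 57 members summed to 238.28 and 258.83 TPM, beside 229.34 and 226.9 TPM for the non-clustered protocadherins, which Pcdh9 (80.55 and 75.85 TPM), Pcdh18 (60.99 and 64.16 TPM), Pcdh8 (32.96 and 31.26 TPM) and Pcdh7 (13.02 and 11.72 TPM) led. The classical cadherins summed to 309.68 and 322.75 TPM, of which Cdh2, the N-cadherin of the neuroepithelium, gave 149.14 and 164.85 TPM and Cdh11 77.73 and 83.34 TPM. The large atypical cadherins were led by the planar polarity gene Celsr2 at 58.27 and 48.59 TPM and by Dchs1 at 20.85 and 21.96 TPM. Fat2, at 0.08 and 0.05 TPM, was the gene of these lists under 1 TPM in both pools.

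Genes in and beside the locus were not low as a group. Of 12 such genes 11 reached 1 TPM in both pools, with a median of 21.5 TPM. The highest were the histone deacetylase gene Hdac3 at 113.24 and 110.1 TPM, the splicing factor gene Ik at 105.76 and 114.21 TPM, the histidyl-tRNA synthetase gene Hars at 77.14 and 81.3 TPM, and Zmat2 at 58.36 and 61.53 TPM. Taf7, a general transcription factor gene between the beta and gamma clusters, had 17.46 and 16.96 TPM, while its neighbour Slc25a2, a mitochondrial carrier gene, had 0.47 and 0.43 TPM. Next to the gamma cluster, the formin gene Diaph1 had 4.5 and 4.1 TPM. Taf7 and Diaph1 were named for their position, with their values known.

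The annotation had little effect on the family. All 57 members are also in GENCODE M4, and their median log2 ratio of M21 over M4 TPM was -0.07, the same as the -0.07 over 15202 genes at 1 TPM or more in both pools. Over the members the ratio ran from -0.11 for Pcdha4 to 0.00 for Pcdhb1, which has no count in either annotation. After Pcdha4 the lowest ratios were -0.09 for both Pcdhgc4 and Pcdhga10, and the highest, after Pcdhb1, were -0.05 for Pcdhb13 and -0.06 for Pcdhac1.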

How the data were processed

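The authors quantified both pools on mm10 with GENCODE M21, used here, and with M4, per the deposited read-me files. Their program was not given in the sources used here. Per the labels, RNA was extracted with mirVana, cDNA was primed with oligo-dT and tagmented, and spike-in RNAs were added. The deposited expected counts are estimated reads that need not be whole. The deposited TPM values are scaled over all entries, spike-ins included, so a larger spike-in share (3.31% in pool 1, 4.25% in pool 2) lowers every gene. FPKM, as deposited, is scaled per kilobase and to the library total. The deposited TPM bounds, which give a range for the signal in TPM, and the deposited posterior SD, a score of assignment error in reads, were used as they are. The deposited isoform percent values were not used: transcript shares were recomputed from transcript TPM. Amplified reads without molecular identifiers are not independent molecules, so intervals and floors of 3 counts cover counting error only.

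Members and lists were chosen with earlier results of these data known. Members at 1 TPM or more in both pools were counted, and differences used log2(TPM + 0.1). Ratios between pools used unrounded expected counts and a prior count of 0.5 for genes with at least 50 mean counts. The TMM factors (edgeR 4.0.16, R 4.3.3) came from counts rounded to whole numbers. The pools are replicates of 1 group, so no test was made. On simulated data at the depth of these 2 libraries, 51.0% of genes raised 2-fold in pool 1 and 52.0% of those lowered 2-fold passed the limit. Genes set at the limit itself pass it about as often as not by construction. Of 14800 genes left unchanged 0.0405% passed, beside 0.994% of the measured genes. The simulation gave every gene the same set spread between pools, so its rates do not describe the measured pools. A constant exon start is one shared by at least 10 members. Windows of 100 bases from each member's longest protein-coding transcript were compared on both strands among all M21 transcripts. The genes named were, per cluster, the 5 highest and 3 lowest, all C-type members, members under 1 TPM, members past 2-fold and the 3 extreme annotation ratios each way, plus the 4 highest and up to 3 genes under 1 TPM of each other list; further members were named after their values were seen. Alternative scalings used spike-in totals, total counts and the size factors of DESeq2 1.42.0. No sequence of the members is printed here.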

Additional observations from a re-analysis of the deposited data

How the results depend on the processing

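No paired analysis was possible because the series holds 1 group, whose pools are its replicates. Of 164 values under alternative settings, 101 stayed within the limit set for them, which does not measure robustness. The limit was the SD of the pools, or 1.5 times for counts and for the percent higher in pool 2. For the median ratio between pools it was 0.098, the median absolute log2 ratio of all genes. With 2 pools, leaving out 1 cannot move a cluster difference, share or effective number past their SD. Some settings could not change a value at all. The cause of the other shifts was not tested. With a threshold of 5 TPM, 0 alpha, 0 beta and 13 gamma members (13 in all) remained above it; by FPKM of 1 or more, 5 alpha and 9 beta members were. The difference alpha minus beta was 0.34 without length correction and 0.067 with a pseudocount of 0.01 TPM (both the opposite sign to the main -0.06), -0.10 with a pseudocount of 1 TPM, -0.43 from protein-coding transcripts only and -0.29 from members at 1 TPM or more in both pools. Gamma minus beta was 2.19 by FPKM, 2.58 without length correction, 2.04 from protein-coding transcripts, 1.57 from members at 1 TPM or more, 1.65 and 2.50 with pseudocounts of 1 and 0.01 TPM and 2.09 without C-type members. In the same order, alpha minus gamma was -2.26, -2.24, -2.47, -1.85, -1.75, -2.43 and -2.13. The C-type difference was 1.31 without length correction, 1.04 from protein-coding transcripts, 1.43 from members at 1 TPM or more, and 1.07 and 1.29 with pseudocounts of 1 and 0.01 TPM.

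Without length correction, alpha took 9.12% and beta 13.6% of the family, with effective numbers of 12.3 and 17.1. From protein-coding transcripts only, beta took 16.5% and gamma 75.9%, with effective numbers of 11.2 for alpha and 13.8 for gamma. From members at 1 TPM or more, alpha took 6.62%, beta 13.4% and gamma 80.0%, with effective numbers of 8.84 for alpha and 13.0 for beta. Alternatives chosen after seeing the data left out Pcdhgc3 and Pcdhgc4, which gave 2.02 for gamma minus beta, -2.08 for alpha minus gamma, -0.60 for the C-type difference (the opposite direction), shares of 11.1%, 21.1% and 67.9% for alpha, beta and gamma, and an effective number of 16.6 for gamma. Members with 30% or more private windows gave 2.11 for gamma minus beta, -2.18 for alpha minus gamma and 0.46 for the C-type difference.

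Scaling by spike-in totals turned the members' median log2 ratio between the pools to 0.18, left 22.0% of members higher in pool 2 and put 0 members past 2-fold. Of the 25 members with 200 or more mean counts 0 passed 2-fold, and of the 50 members with 50 or more 3 passed a limit of 1.5-fold. The median annotation ratio was -0.038 from depth-scaled counts, -0.049 with a pseudocount of 1 TPM, and between -0.0685 and -0.0679 with 1 pool left out. The gamma share in constant-exon transcripts was 90.1% by expected counts. Depth limits the 6 beta members and 1 alpha member under 50 mean counts, whose ratios between the pools were not used in the main comparison.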

Other observations

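Pcdhgb8 is annotated as a polymorphic pseudogene and was left out of the 57 members. It had 1.38 TPM in pool 1 and 1.48 TPM in pool 2, below every gamma member. Gm10544, a transcript on the strand opposite the alpha genes near their constant exons, had 3.96 and 3.94 TPM, above each alpha member. The lincRNA 3222401L13Rik, between the beta and gamma clusters, had 1.75 and 2.12 TPM. The read-through genes Gm37013 and Gm37388 were listed at 0 in both pools.

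Among the beta genes, Pcdhb22 had most of its TPM in a spliced transcript of 2 exons, at 1.3 and 1.46 TPM, beside 0.45 TPM in each pool for the unspliced transcript. By expected counts, not corrected for length, the spliced transcript held 48.8% and 51.9% of this gene. In Pcdhb8 a short spliced transcript of 462 bases took 0.95 TPM in pool 1 and 0.23 TPM in pool 2. These values rest on 6.87 and 1.51 expected counts, and their bounds, 0.334 to 1.89 TPM and 0.0115 to 0.949 TPM, overlapped. All transcripts of Pcdhb8 had 122 and 150 counts, beside 2.74 and 2.71 TPM.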
